A study of Mus musculus with 2 samples.

Results

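A set of 10 secreted or membrane-bound immune mediators that the colon epithelium transcribes were followed in single cells: 7 chemokines (Ccl6, Ccl25, Ccl28, Cxcl9, Cxcl10, Cxcl16 and Cx3cl1) and 3 cytokines or cytokine antagonists (Il18, Il1rn and Tnfsf10). They were chosen by symbol, all 10 of the listed genes were found among the 31053 genes of the matrices, and all 10 passed the minimum of 50 unique molecular identifiers (UMIs) over both libraries in every comparison. The data are droplet counts from 2 libraries of mouse colon epithelium, 1 per condition. The first, labelled whole epithelium, held colonic epithelial cells of c-Kit-creERT2 mice with no treatment. The second, labelled GFP, held GFP-positive cells sorted from mice that were c-Kit-creERT2;Rosa26-mTG, after 1 injection of tamoxifen into the peritoneum at 1 mg per 20 g of body weight. Both genotypes thus carry the tamoxifen-dependent Cre recombinase driven by Kit, and the GFP label marks cells in which that Cre was active, with their descendants, whatever their type. The labels give no age, number of animals or interval between tamoxifen and collection.

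With 1 library per condition there was no test. Every interval given here is an exact 95% interval that covers counting error only, and the condition, the tamoxifen, the sort, the genotype and the library cannot be told apart. A gene is said to be higher or lower between libraries only at 2-fold or more. The matrices were recorded crossed between the samples, and each was given to the sample whose list of barcodes has its length (13967 for whole epithelium, 13575 for GFP), so every direction would turn with the reverse assignment. After filters, 7436 and 5732 cells without a Cd3e or Cd3g UMI remained under the whole epithelium and GFP labels, with 134722196 and 108316297 UMIs. The libraries shared 60 barcodes, 19 of them among kept cells.

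Chemokines are small proteins that bind receptors on leukocytes and draw those cells along a gradient, and a few, such as Cxcl16 and Cx3cl1, are made as transmembrane proteins that can also hold a cell in place until a protease sheds them. In the gut, epithelial chemokines guide lymphocytes to and along the mucosa, and those of the Cxcr3 axis are classical targets of interferon gamma. Interleukin 18 is made as a precursor that caspase 1 cleaves, interleukin 1 receptor antagonist blocks the interleukin 1 receptor without signalling, and Tnfsf10 (TRAIL) is a ligand of death receptors.

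Classes were named from marker genes, with all 10 genes and their pathway list left out of the genes used for clustering. Colonocyte-like cells numbered 2492 under the whole epithelium label (clusters c7, c9, c10, c15 and c18) and 1578 under the GFP label (c3, c17 and c19). Goblet-like cells numbered 1028 (mainly c12, c16 and c23) and 951 (mainly c11 and c13), and stem and transit-amplifying (stem/TA-like) cells numbered 2190 (c1, c4 and c14) and 1453 (c5 and c8). All 16 colonocyte markers were detected and summed to 45563 and 50246 UMIs per 1000000 UMIs (CPM) in colonocyte-like cells. All 15 goblet markers were detected too and summed to 42608 and 50485 CPM in goblet-like cells. In stem/TA-like cells the 14 cycling markers summed to 2632 and 2586 CPM, against 1108 and 1620 in goblet-like cells. The 11 stem markers summed to 595 and 455 CPM, against 581 and 515, so they do not set this class apart from goblet-like cells. Only c4 scored best on the stem markers, and c1, c14, c5 and c8 did on the cycling markers. Below, crypt means this class, and position was not measured. Since the classes were named from these markers, the sums describe the classes and do not test their names. Different clusters hold each class in the 2 libraries, so a difference within a class is also one between those clusters. Unnamed cells were 1493 of 7436 cells under the whole epithelium label and 1694 of 5732 under the GFP label. They held 6.82% and 3.80% of the UMIs, and they are in no class comparison.

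The promoters of 3 genes are printed because Cxcl9, Cxcl10 and Tnfsf10 were high in the same crypt cluster and differed between libraries in the same direction. Each run is the 250 bases before the RefSeq gene start on the gene's strand, from 5′ to 3′ (GRCm38.p6): chr5:92328080-92328329 on the minus strand for Cxcl9, chr5:92348890-92349139 on the minus strand for Cxcl10 and chr3:27316827-27317076 on the plus strand for Tnfsf10. Capitals mark a match to the interferon-stimulated response element (GAAA, any 2 bases, GAAA) or to the NF-kB consensus on either strand.
Cxcl9: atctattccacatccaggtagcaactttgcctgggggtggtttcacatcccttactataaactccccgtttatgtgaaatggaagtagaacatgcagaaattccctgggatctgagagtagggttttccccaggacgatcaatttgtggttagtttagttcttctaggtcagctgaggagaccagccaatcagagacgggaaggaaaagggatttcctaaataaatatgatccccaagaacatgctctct
Cxcl10: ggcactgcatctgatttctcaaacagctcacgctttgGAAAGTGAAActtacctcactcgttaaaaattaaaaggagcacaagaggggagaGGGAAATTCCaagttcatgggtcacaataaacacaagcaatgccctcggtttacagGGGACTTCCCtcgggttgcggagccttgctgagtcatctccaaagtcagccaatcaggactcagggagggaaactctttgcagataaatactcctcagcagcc
Tnfsf10: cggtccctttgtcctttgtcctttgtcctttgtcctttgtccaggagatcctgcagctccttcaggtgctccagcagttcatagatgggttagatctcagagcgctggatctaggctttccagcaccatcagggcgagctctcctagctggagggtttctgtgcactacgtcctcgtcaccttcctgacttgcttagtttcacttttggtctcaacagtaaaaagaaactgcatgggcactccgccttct
The Cxcl10 window held 1 response element, GAAAGTGAAA, at 213 to 204 bases before the start, and 2 NF-kB matches, GGGAAATTCC at 159 to 150 and GGGACTTCCC at 103 to 94 bases. Neither motif, nor the interferon gamma activated site TTCNNNGAA, was found in these letters of the Cxcl9 or Tnfsf10 window, nor in the other windows of the 9 genes with a RefSeq entry (12 windows). Of 32851 windows of 250 bases, 2.98% held the response element, 3.90% the NF-kB consensus and 7.02% the activated site. A match is a description of the letters and not a binding site. Cxcl9 (92321347 to 92328079) and Cxcl10 (92346638 to 92348889) lie beside each other on chromosome 5 of GRCm38, both on the minus strand. Cxcl10 overlaps Art3 on the other strand.

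Over all kept cells, 5 of the 10 genes were at least 2-fold apart between the libraries, against 9.55% of the 13658 genes measured. In the library labelled GFP 4 of the 10 were lower, against 6.31% of all genes, and 1 was higher, against 3.24%. The lower genes were Cxcl9, Cxcl10, Cxcl16 and Tnfsf10, and the higher gene was Il1rn. The median log2 ratio of GFP to whole epithelium was -0.50 over the 10 genes and -0.01 over all genes. The other 5 genes (Ccl6, Ccl25, Ccl28, Cx3cl1 and Il18) lay within 2-fold. Within colonocyte-like cells 5 genes were 2-fold apart (background 9.11%), with Cxcl9, Cxcl10, Cxcl16 and Tnfsf10 lower (5.86%) and Il1rn higher (3.25%). Within goblet-like cells 5 were 2-fold apart (6.01%), with Ccl6, Cxcl9, Cxcl10 and Cxcl16 lower (3.49%) and Ccl28 higher (2.52%). Within stem/TA-like cells 3 were 2-fold apart (7.42%), with Cxcl9, Cxcl10 and Cxcl16 lower (4.41%) and none of the 10 higher (3.01%). The median log2 ratio of all genes was -0.14 in colonocyte-like cells and within 0.1 of 0 in the other comparisons.

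**Figure D1:**
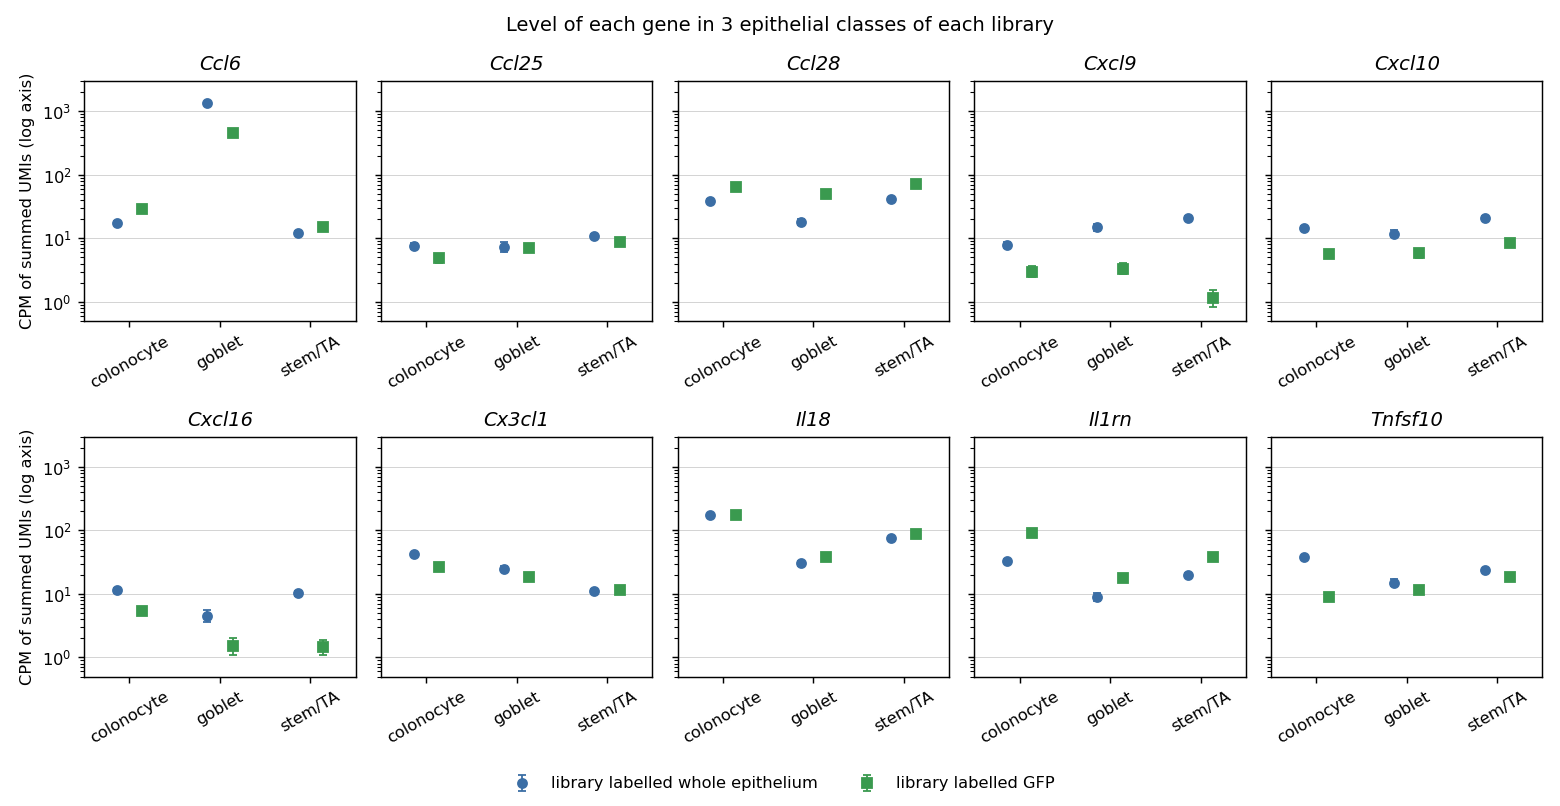
Level in CPM of each gene (log axis) in colonocyte-like, goblet-like and stem/TA-like cells, under the whole epithelium label (circles) and the GFP label (squares), with exact 95% counting intervals. Ccl6 stands at 1366 and 455 CPM in goblet-like cells and under 30 CPM in both other classes, while Cxcl9, Cxcl10 and Cxcl16 are lower under the GFP label in each class.

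Ccl6, a mouse CC chemokine that acts on Ccr1, was a goblet cell transcript in both libraries. In goblet-like cells it stood at 1366 CPM (1349 to 1382) under the whole epithelium label and at 455 CPM (447 to 463) under the GFP label, a log2 ratio of -1.59 (-1.62 to -1.56). Goblet-like cells held 90.1% of its UMIs in the first library and 85.5% in the second, while they held 13.8% and 26.9% of all UMIs. Within the first library the cluster led by Retnlb, Muc2 and Spink4 (c12) had 1453 CPM, the cluster led by Mptx1, Sval1 and Zg16 (c16) 1411 CPM and the shallower goblet cluster (c23) 747 CPM. Within the second, c11 (led by Mptx1, Sval1 and Fcgbp) had 524 CPM and c13 (led by Nov, Muc2 and Retnlb) 370 CPM. Each of the larger goblet clusters of the first library was thus above each of those of the second, with no overlap of their counting intervals.

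The spread of Ccl6 over goblet cells also differed. After thinning to 2000 UMIs per cell, 720 of 959 goblet-like cells (75.1%, exact Clopper-Pearson interval 72.2 to 77.8) had a Ccl6 UMI under the whole epithelium label and 421 of 950 (44.3%, 41.1 to 47.5) under the GFP label. Without thinning the shares were 90.0% and 80.7%, at median depths of 16133 and 26363 UMIs. Outside goblet cells the first library had 17.5 CPM of Ccl6 in colonocyte-like, 12.3 in stem/TA-like and 66.8 (51.9 to 84.7) in enteroendocrine-like cells, with thinned shares of 3.47%, 3.00% and 19.7%. T/NK-like cells with a Cd3e or Cd3g UMI of that library (186 cells, median 4146 UMIs), a cell type outside the epithelium, stood at 29.8 CPM (19.6 to 43.3), with a thinned share of 6.40%. The colonocyte-like and stem/TA-like values are not above that level in CPM or in thinned share. The enteroendocrine-like value (196 cells, median 2895 UMIs) lies above it. Per cell, these 3 classes had 0.327, 0.334 and 0.347 Ccl6 UMIs at median depths of 16127, 24958 and 2895 UMIs. The 186 T/NK-like cells held 27 Ccl6 UMIs in all. Whether the low values outside goblet-like cells are expression or background was not tested.

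In colonocyte-like cells the ratio of Ccl6 pointed the other way but within 2-fold, 17.5 against 29.3 CPM (log2 ratio 0.74, 0.60 to 0.87). The summed goblet markers in those cells moved with it, from 625 to 2142 CPM, with all 15 of 15 markers detected in both, and their part in the difference was not tested. The highest colonocyte value was 84.9 CPM in c17 of the second library. Across clusters of at least 50 cells (15 and 9 per library) the 3 genes whose log2 level ran most like Ccl6 were Bcas1, Spink4 and Ramp1, with mean Pearson correlations of 0.97, 0.96 and 0.96. Spink4 and Ramp1 belong to the goblet markers used for naming, and all points within a library share its depth and free RNA.

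Ccl25, the ligand of Ccr9 that guides lymphocytes mainly to the small intestine, was low and even. In the library labelled whole epithelium it stood at 7.61 CPM in colonocyte-like, 7.31 in goblet-like and 10.8 in stem/TA-like cells. In the library labelled GFP the same classes had 4.82, 7.04 and 8.82 CPM. The range over the 3 classes was 1.48-fold and 1.83-fold, and the goblet and colonocyte levels of the first library did not differ beyond their counting intervals. T/NK-like cells with a Cd3 UMI stood at 14.3 CPM (7.63 to 24.5, 13 UMIs in 186 cells, median 4146 UMIs), and none of the 3 classes was above that interval. After thinning, 2.91% (0.951 to 6.65) of them had a UMI, against 1.34%, 1.98% and 1.91% in the 3 classes. Per cell the classes had 0.142, 0.132 and 0.292 UMIs at median depths of 16127, 16133 and 24958 UMIs. Whether these low levels are expression or background was not tested. Between libraries the log2 ratios were -0.66, -0.05 and -0.29 in the 3 classes and -0.38 over all cells, within 2-fold in each. The genes most like it over clusters were Cramp1l, Nudt13 and Rmi1 (mean correlations 0.93, 0.92 and 0.91). The gene (chromosome 8, 4325210 to 4360020) overlaps Elavl1 on the other strand, and the handling of strand in the counting is not given in the sources used here.

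Ccl28, a mucosal chemokine whose receptors are Ccr10 and Ccr3, was present in all 3 classes and was higher under the GFP label in goblet-like cells. Goblet-like cells had 18.1 CPM (16.2 to 20.1) under the whole epithelium label and 49.7 CPM (47.2 to 52.3) under the GFP label, a log2 ratio of 1.46 (1.29 to 1.63). Both large goblet clusters of the second library (55.2 CPM in c11 and 43.0 in c13) were above the large ones of the first (12.4 in c12, 23.0 in c16). The share of thinned goblet-like cells with a UMI was 3.23% (2.21 to 4.56) and 7.79% (6.17 to 9.68). Colonocyte-like cells had 39.2 and 64.6 CPM (log2 ratio 0.72), and stem/TA-like cells had 41.6 and 72.3 CPM (0.80), both within 2-fold. In both libraries stem/TA-like cells were highest and goblet-like cells lowest, with a range of 2.30-fold and 1.46-fold, and in the first the stem/TA-like and colonocyte-like levels did not differ beyond their counting intervals. The genes most like Ccl28 over clusters were Ces2g, Smad2 and Maob (mean correlations 0.84, 0.83 and 0.81). In T/NK-like cells with a Cd3 UMI the level was 2.20 CPM (0.267 to 7.96).

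**Figure D2:**
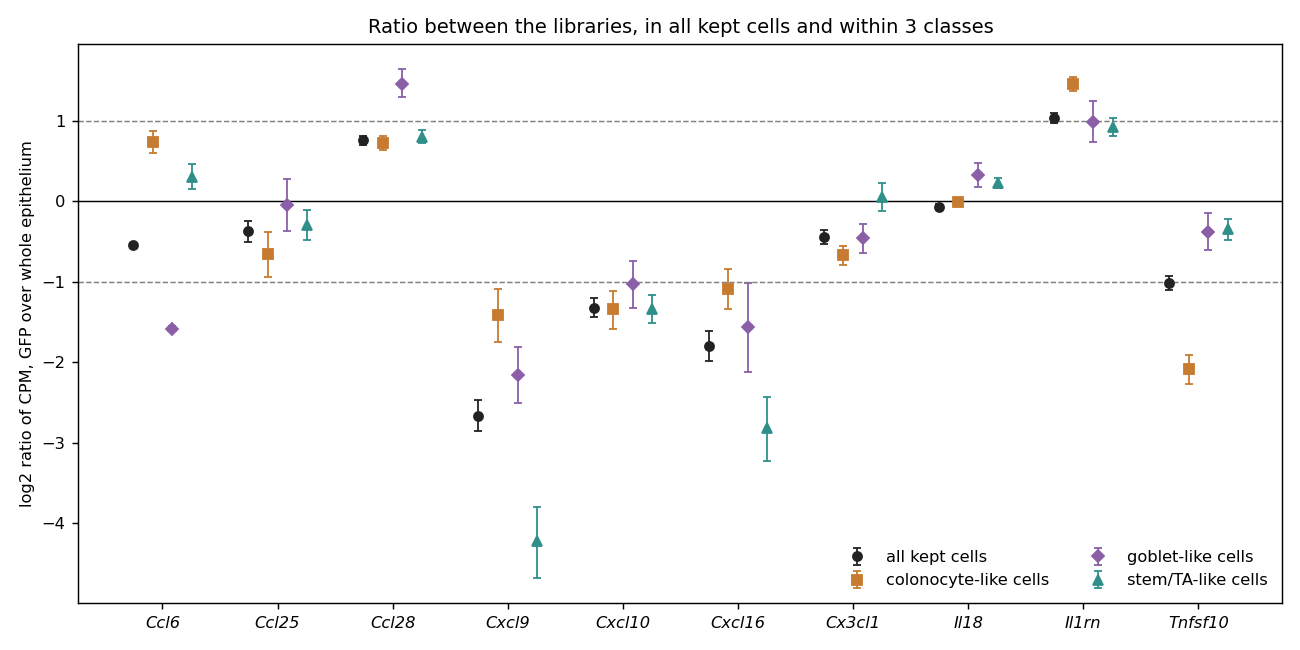
Log2 ratio of CPM, library labelled GFP over library labelled whole epithelium, for each gene in all kept cells (circles), colonocyte-like (squares), goblet-like (diamonds) and stem/TA-like cells (triangles), with exact 95% counting intervals and dashed lines at 2-fold. Cxcl9 reaches -4.22 in stem/TA-like cells, Il1rn is above 0 in all 4 sets, and Ccl6 is below 0 in goblet-like cells (-1.59) and above 0 in colonocyte-like cells (0.74).

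Cxcl9, an interferon gamma-induced ligand of Cxcr3, showed the widest gap of the 10 genes. Over all kept cells it had 1998 UMIs (14.8 CPM, 14.2 to 15.5) under the whole epithelium label and 254 UMIs (2.34 CPM, 2.07 to 2.65) under the GFP label, a log2 ratio of -2.66 (-2.86 to -2.47). Stem/TA-like cells had 1252 UMIs (21.1 CPM) and 47 UMIs (1.14 CPM), a log2 ratio of -4.22 (-4.67 to -3.80). Goblet-like cells had 14.8 and 3.33 CPM (-2.15) and colonocyte-like cells 7.93 and 2.98 CPM (-1.41). The first library was higher in each class. In its T/NK-like cells with a Cd3 UMI the gene stood at 2.20 CPM (0.267 to 7.96, from 2 UMIs). The stem/TA-like and goblet-like levels of that library lie above that interval, and the colonocyte-like level (7.14 to 8.78) overlaps it.

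Few cells carried the Cxcl9 transcripts. In stem/TA-like cells of the first library 130 of 2190 cells (5.94%) had a UMI, 1 cell had 215, and the top 1% of the cells held 74.4% of the UMIs. Cluster c14, 411 cells led by Cxcl9, H2-Eb1, Iigp1 and Cd74, with the cell division genes Cenpa and Cdca3 among its top 10, held 1122 of those 1252 UMIs, at 91.1 CPM (85.8 to 96.5). The other crypt clusters of that library had 4.79 CPM (c1) and 0.374 CPM (c4), and those of the second library had 0.627 (c5) and 1.83 (c8). Without c14 the log2 ratio in stem/TA-like cells was -1.29, and with each library clustered on its own it was -0.80, under 2-fold. Among the clusters of at least 50 cells, the goblet cluster c12 was next with 29.5 CPM, against 0.733 CPM in the other large goblet cluster, c16.

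Cxcl10, a ligand of the same receptor, was lower under the GFP label in each class. Over all kept cells it stood at 17.5 CPM (16.8 to 18.2) and 6.98 CPM (6.49 to 7.50), a log2 ratio of -1.32 (-1.44 to -1.20). Colonocyte-like cells had 14.6 and 5.75 CPM (-1.34), goblet-like cells 11.9 and 5.81 CPM (-1.03) and stem/TA-like cells 21.2 and 8.38 CPM (-1.34). The highest large cluster was again c14, at 62.7 CPM (58.4 to 67.3). Without c14 the log2 ratio in stem/TA-like cells was -0.29, with each library clustered on its own it was -0.05, and in colonocyte-like cells without a T/NK or myeloid marker UMI it was -0.15, so those within-class differences fell under 2-fold. Without such marker cells the ratio was -2.86 in goblet-like and -2.67 in stem/TA-like cells. That filter left 1709 and 916 colonocyte-like, 544 and 329 goblet-like, and 839 and 300 stem/TA-like cells. Goblet-like cells of the second library had UMIs of 7 of the 14 myeloid markers, which summed to 67.7 CPM. C1qc, Csf1r, Adgre1, Tyrobp, Lyz2, Itgax and Flt3 were at 0. How many of the cells left out were leukocytes was not tested. In colonocyte-like cells the top 1% of cells held 73.6% and 88.5% of the UMIs, and 1 cell of the second library held 91 of 191. In goblet-like cells the top 1% held 59.7% and 47.9%, and 1 cell of the first library held 43 of 221. Thinned shares of goblet-like cells with a UMI were 1.46% (0.800 to 2.44) and 0.632% (0.232 to 1.37), with overlapping intervals. Unlike Cxcl9, Cxcl10 was higher in T/NK-like cells with a Cd3 UMI (77.1 CPM, 60.1 to 97.5, 70 UMIs) than in any of the 3 epithelial classes. In colonocyte-like cells the 14 T/NK markers summed to 4.84 CPM and 0.783 CPM, with Cd3e and Cd3g at 0 in both by the choice of cells, and the 14 myeloid markers to 21.0 and 36.0 CPM, and their part in the Cxcl10 difference was not tested beyond that alternative.

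Cells with both Cxcr3 ligands were counted. Of the 130 stem/TA-like cells with a Cxcl9 UMI in the first library, 42.3% also had a Cxcl10 UMI, against 9.37% of the cells without one. Cluster c14 held 52 of the 55 cells with both. Within c14 the shares were 57.1% and 20.0%, within c1 9.68% and 7.58%, and within c4 0% (of 8 cells) and 7.24%. H2-Aa, a class II antigen presentation gene, was detected in 70.0% of those 130 cells and in 23.2% of all stem/TA-like cells of that library. Within c14 it was detected in 91.2% of the cells with a Cxcl9 UMI and in 84.2% of all cells. In the second library only 15 of 1453 stem/TA-like cells had a Cxcl9 UMI, 5 of them with Cxcl10. These shares were not matched for depth. Doublets were not removed, and their part in these shares and in the c14 values was not tested.

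Tnfsf10, the death receptor ligand TRAIL, differed most in colonocytes. Colonocyte-like cells stood at 37.7 CPM (35.9 to 39.5) under the whole epithelium label and at 8.85 CPM (7.87 to 9.92) under the GFP label, a log2 ratio of -2.09 (-2.27 to -1.91). The thinned share of those cells with a UMI was 7.41% (6.38 to 8.56) and 1.65% (1.08 to 2.41). Among the first library's colonocyte clusters the level ran from 9.15 CPM in c15, led by Atp12a and Fxyd4, to 90.3 CPM in c18, led by Cpn1, Ubd and Tmigd1. Among those of the second it ran from 4.82 CPM in c3 to 22.1 CPM in c17. Goblet-like cells had 15.1 and 11.6 CPM (-0.38) and stem/TA-like cells 23.5 and 18.5 CPM (-0.35), both within 2-fold. However, the goblet-like ratio was -1.67 without cells with a T/NK or myeloid marker UMI, which left 544 and 329 goblet-like cells.

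In the crypt, Tnfsf10 differed more between clusters of 1 library than between libraries. Under the whole epithelium label it stood at 59.97 CPM in c14, 17.3 in c1 and 9.95 in c4, and under the GFP label at 32.2 CPM in c8 and 8.40 in c5. Leaving out c14 takes away cells of the first library only, those of its highest crypt cluster for Tnfsf10. Without c14 the log2 ratio of Tnfsf10 in stem/TA-like cells turned to 0.40, and without c4 and c8 it was -1.89. Its direction in that class therefore rests on which clusters are put there. Over all cells it stood at 27.0 and 13.4 CPM (-1.02), and at -0.56 among cells with at most 10% mitochondrial UMIs, under 2-fold. T/NK-like cells with a Cd3 UMI had 61.7 CPM (46.6 to 80.1), above the mean of each epithelial class.

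**Figure D3:**
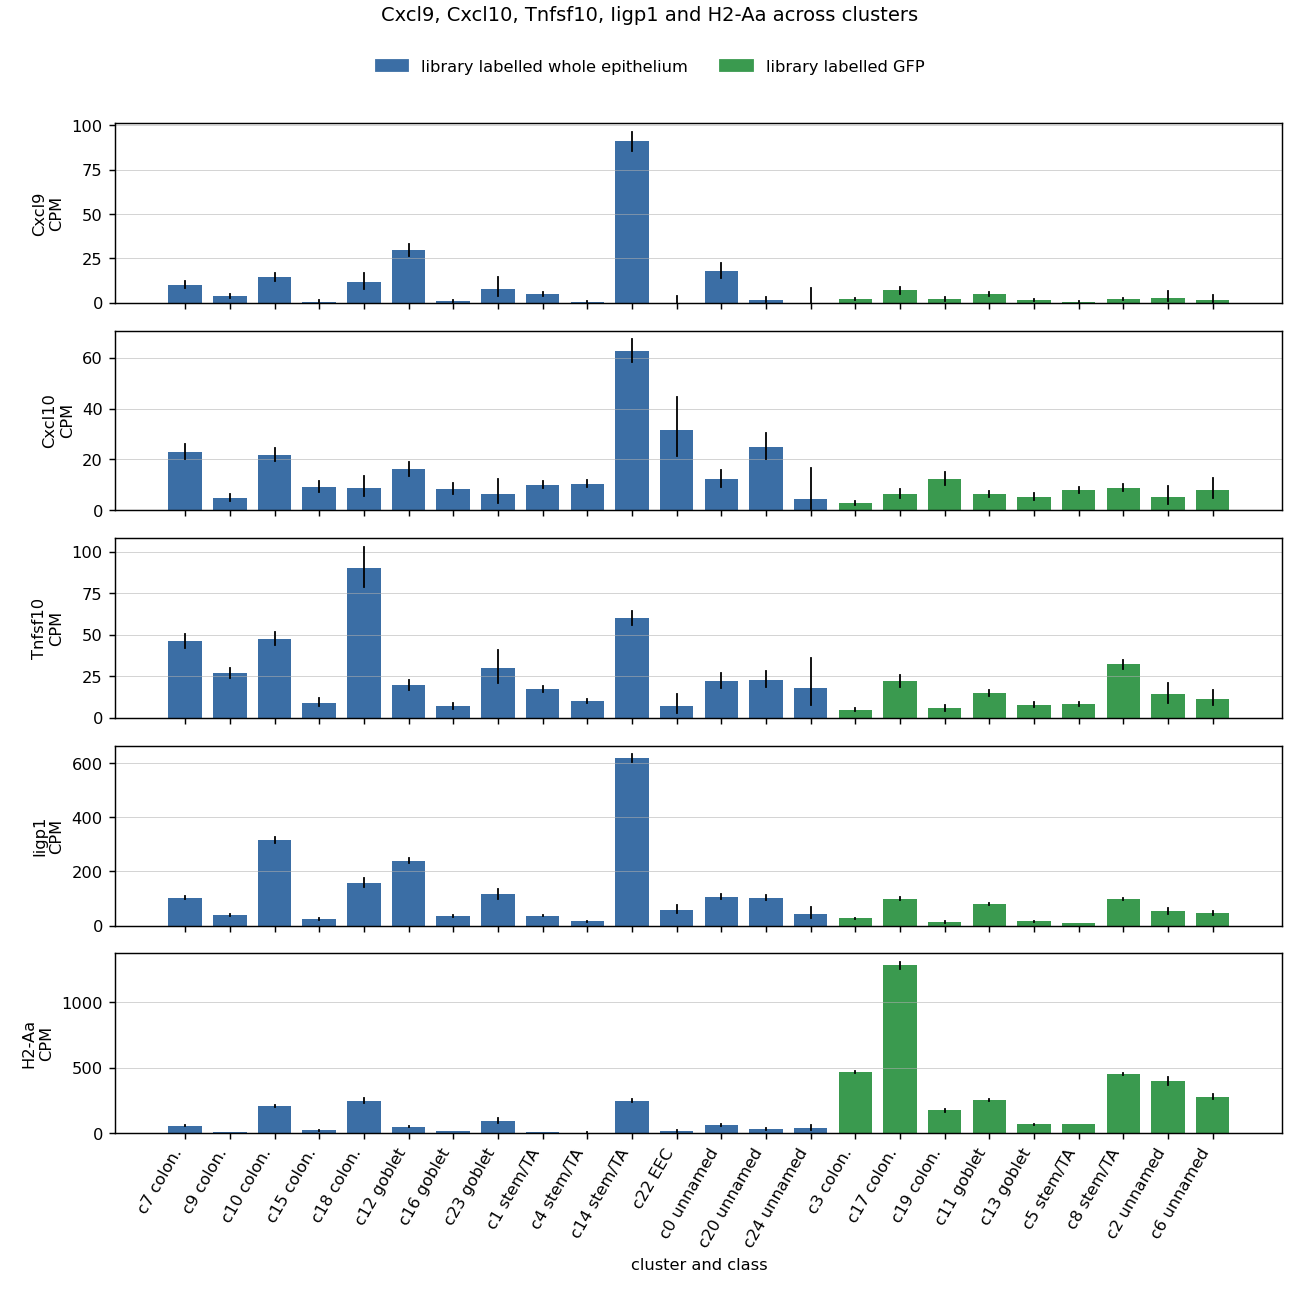
Level in CPM of Cxcl9, Cxcl10, Tnfsf10, Iigp1 and H2-Aa in each cluster with at least 50 cells, by class, in the library labelled whole epithelium (blue) and the library labelled GFP (green), with exact 95% counting intervals as black lines and axes that start at 0. Cluster c14 is highest for Cxcl9 (91.1 CPM), Cxcl10 (62.7 CPM) and Iigp1 (619 CPM), whereas H2-Aa is highest in c17 of the library labelled GFP (1281 CPM).

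Other interferon-related genes, shown beside these 3 in the plot across clusters, did not all follow them. Iigp1, an interferon-induced GTPase, stood at 139.7 and 45.6 CPM over all cells (log2 ratio -1.61) and peaked in c14 at 619 CPM. Irf7, a transcription factor induced by type I interferon, was lower too, at 243 and 103 CPM (-1.24). Irf1, a transcription factor induced by interferon gamma, lay within 2-fold (log2 ratio -0.10). H2-Aa was higher under the GFP label, at 69.6 and 326 CPM (2.23). Among genes with at least 500 UMIs in each library, those most like Cxcl9 over clusters were Iigp1, Gm4951 and Igtp (mean correlations 0.80, 0.79 and 0.77), and those most like Tnfsf10 were the immunoproteasome subunits Psmb8 and Psmb9 and the peptide editor Tapbpl (0.88, 0.82 and 0.82). For Cxcl10 they were Axin1, Bcorl1 and Sept8 (0.74, 0.70 and 0.69). Cxcl9 had under 500 UMIs in the second library, which limits its correlation.

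Cxcl16, a transmembrane chemokine and scavenger receptor that binds Cxcr6, was lower under the GFP label in each class. Stem/TA-like cells had 604 UMIs (10.2 CPM, 9.40 to 11.0) under the whole epithelium label and 60 UMIs (1.45 CPM, 1.11 to 1.87) under the GFP label, a log2 ratio of -2.82 (-3.22 to -2.43). Colonocyte-like cells had 11.5 and 5.39 CPM (-1.09) and goblet-like cells 4.46 and 1.51 CPM (-1.56). Each of the 3 crypt clusters of the first library (7.26 CPM in c1, 15.3 in c4 and 7.47 in c14) was above both of the second (1.34 in c5 and 1.60 in c8). The crypt difference of Cxcl9 shrank without c14, though it stayed beyond 2-fold. That of Cxcl16 did not rest on c14, and its alternatives for stem/TA-like cells ran from -3.95 to -2.33. In colonocytes, c17 of the second library (11.5 CPM) lay within the range of the first library's clusters (7.77 to 17.3 CPM), and after centring on the median gene the ratio was -0.95. T/NK-like cells with a Cd3 UMI had 3.31 CPM (0.682 to 9.66), and the goblet level of the first library did not exceed that interval. The genes most like Cxcl16 over clusters were Adgrg7, Necap2 and Sptlc2 (mean correlations 0.78 each), with under 500 UMIs of Cxcl16 itself in the second library. In the cluster named T/NK-like (c21), the 23 cells without a Cd3 UMI go against that name: the 14 myeloid markers, all detected, summed to 13659 CPM and the 14 T/NK markers to 2393 CPM. They had 325 CPM of Cxcl16, with H2-Aa at 5710 and Cxcl2 at 1120 CPM, but held only 2.82% of its UMIs in that library. The gene (chromosome 11, 70453983 to 70459984) overlaps Zmynd15 on the other strand.

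Cx3cl1 (fractalkine), the membrane-bound ligand of Cx3cr1, was lowest in the crypt class and highest in colonocytes in both libraries, and lay within 2-fold between them. It stood at 11.2 CPM in stem/TA-like, 25.1 in goblet-like and 41.7 in colonocyte-like cells under the whole epithelium label. The same order held under the GFP label, with 11.5, 18.2 and 26.2 CPM. Each step in that order was larger than the counting intervals. The log2 ratios between libraries were 0.05, -0.46 and -0.67 in the same classes. Every colonocyte cluster of the first library lay between 34.5 and 52.0 CPM, and those of the second between 18.6 and 32.9 CPM. Its closest genes over clusters were F2rl1, B3gnt3 and Spint2 (mean correlations 0.93, 0.92 and 0.92).

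Il18, the caspase 1 substrate, had nearly the same level in both libraries and a steep gradient within them. Over all kept cells it stood at 105.5 CPM (104 to 107) and 100.1 CPM (98.2 to 102), a log2 ratio of -0.08. Colonocyte-like cells had 173.7 and 172.8 CPM (-0.01, with an interval of -0.06 to 0.04), stem/TA-like cells 74.9 and 87.4 CPM (0.22) and goblet-like cells 30.4 and 38.1 CPM (0.33). Colonocytes were highest and goblet cells lowest in both, with a range of 5.72-fold and 4.53-fold. In T/NK-like cells with a Cd3 UMI it stood at 17.6 CPM (10.1 to 28.6), an interval that the goblet level of the first library (27.9 to 33.0) overlaps. The gene (chromosome 9, 50554827 to 50581840) overlaps Bco2 and Tex12 on the other strand.

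Within colonocytes Il18 marked some clusters and was scarce in others. Under the whole epithelium label it reached 495 CPM (479 to 512) in c15, led by Atp12a, Fxyd4 and Tgm3, with a UMI in 95.4% of its 393 cells. In the same library c10, led by Fabp6 and Car1, had 32.8 CPM and c18 had 13.3 CPM (9.15 to 18.7). Under the GFP label c17, led by Clca4b, Tgm3 and Atp12a, had 356 CPM (342 to 369), c3 142 CPM and c19, led by Car1 and Cyp2c55, 70.6 CPM. In both libraries the cluster with Atp12a and Tgm3 among its leading genes was thus highest. In the crypt, c4 (130 CPM) and c8 (141 CPM) were above c1 (58.3), c14 (13.3) and c5 (48.1). Among the colonocyte clusters Tnfsf10 was low in c15 (9.15 CPM) and highest in c18 (90.3 CPM) in the first library, but in the second it was highest in c17 (22.1 CPM), as Il18 was. The correlation of Il18 and Tnfsf10 over clusters was -0.41 in the first and 0.45 in the second.

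**Figure D4:**
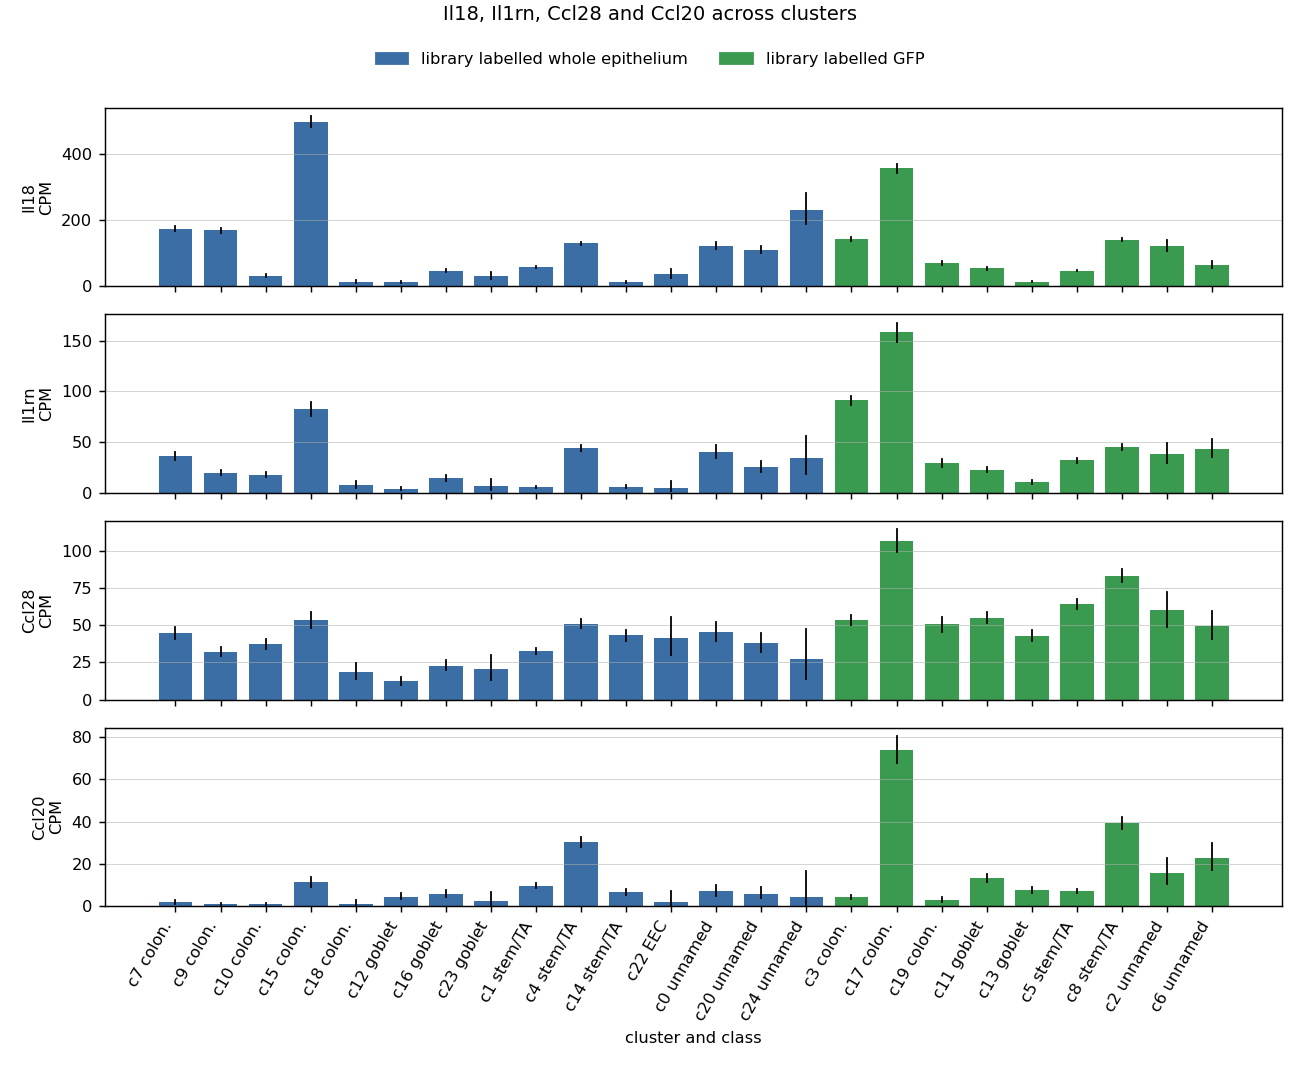
Level in CPM of Il18, Il1rn, Ccl28 and Ccl20 in each cluster with at least 50 cells, by class, in the library labelled whole epithelium (blue) and the library labelled GFP (green), with exact 95% counting intervals as black lines and axes that start at 0. Il18 is highest in c15 (495 CPM) and c17 (356 CPM), and Il1rn, Ccl28 and Ccl20 are highest in c17 (158, 107 and 74.1 CPM).

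Il1rn, the interleukin 1 receptor antagonist, was the 1 gene at least 2-fold higher over all cells. It stood at 23.9 CPM (23.1 to 24.7) and 48.8 CPM (47.5 to 50.2), a log2 ratio of 1.03 (0.97 to 1.10), which fell to 0.83 among cells with at most 10% mitochondrial UMIs and to 0.85 with equal weight per cell. Colonocyte-like cells had 33.5 and 91.6 CPM (1.45, 1.36 to 1.54), goblet-like cells 8.98 and 17.8 CPM (0.99) and stem/TA-like cells 19.9 and 37.6 CPM (0.92). The thinned share of colonocyte-like cells with a UMI was 6.33% (5.37 to 7.40) and 13.8% (12.2 to 15.6). The colonocyte ratio stayed at 2-fold or more in all 7 alternatives, the lowest being 1.02 with each library clustered on its own. In stem/TA-like cells the alternatives ran from -0.35 to 2.42, so no direction is given there.

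Across clusters Il1rn followed Il18 closely. Their Pearson correlation over log2 levels was 0.88 across 15 clusters of the first library and 0.93 across 9 of the second, the highest of the 45 pairs of the 10 genes in each, and Nrap was the gene closest to both (mean correlations 0.95 with each). Il1rn stood at 82.5 CPM in c15 and 158 CPM in c17, against 7.66 in c18 and 29.2 in c19. In the crypt it stood at 44.3 CPM in c4 and 45.0 in c8, against 5.96 in c1 and 6.17 in c14. Ccl28 had its highest colonocyte levels in the same clusters (53.6 CPM in c15 and 107 in c17). Ccl20, the ligand of Ccr6 and not one of the 10 genes, stood at 11.3 CPM in c15 and 74.1 in c17, where single cells held 51 of 80 and 230 of 547 UMIs, and under 5 CPM in the other colonocyte clusters.

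The highest class was largely shared. For 8 of the 10 genes the same class of the 3 was highest in both libraries: goblet-like cells for Ccl6, stem/TA-like cells for Ccl25, Ccl28 and Cxcl10, and colonocyte-like cells for Cxcl16, Cx3cl1, Il18 and Il1rn. Cxcl9 (stem/TA-like and goblet-like) and Tnfsf10 (colonocyte-like and stem/TA-like) changed place. The counting intervals of the highest and the next class overlapped for Ccl28 and Cxcl16 in the first library and for Ccl25 and Cxcl9 in the second. The highest class is not resolved in those cases. Enteroendocrine-like cells, 196 and 35, had Cxcl10 at 31.4 CPM (21.5 to 44.4) and 59.1 CPM (36.1 to 91.3), but 1 cell held 16 of the 32 UMIs in the first library and 1 cell 19 of the 20 in the second. The 14 and 18 tuft-like cells gave at most 6 UMIs for any of the genes and no level is read from them.

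Of the 105 other genes of the chemokine and cytokine list found in the matrices, 71 had at least 50 UMIs over all kept cells, and 6 of them were at least 2-fold lower (6.31% of all genes) and 5 at least 2-fold higher (3.24%) under the GFP label. Their median log2 ratio was -0.02, beside -0.01 over all genes. The 6 lower genes were Ccl5 (714 and 88 UMIs), Ccl4 (93 and 9), Xcl1 (149 and 0), Il1b (457 and 60), Irf7 and Il18bp. Ccl5, Ccl4 and Xcl1 are chemokines of T and NK cells. The 14 T/NK markers, 12 of them detected in each library, summed to 9.13 and 2.096 CPM in the same cells, and their part in these differences was not tested. The higher ones were Ccl7 (20 and 122 UMIs), Cxcl5 (93 and 303), Pf4 (169 and 518), Tgfb1 (299 and 511) and Tnfrsf11b (51 and 86).

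Partners of the 10 genes were measured in the same cells. Il18bp, the secreted decoy of interleukin 18, stood at 49.7 and 19.4 CPM in colonocyte-like cells (log2 ratio -1.36, -1.49 to -1.23) and at 16.9 and 7.28 CPM in goblet-like cells (-1.21), lower under the GFP label where Il18 itself was within 2-fold. Casp1, which cleaves the precursor, had 208 and 168 CPM in colonocyte-like cells (-0.30), and all 12 inflammasome and sheddase genes tested there, Adam10 and Adam17 among them, lay within 2-fold, as did all but 9.11% of all genes. Tnfrsf10b, the death receptor for Tnfsf10, was highest in stem/TA-like cells, at 19.9 and 10.4 CPM (-0.94). Il1rap and Il1r1, 2 chains of the interleukin 1 receptor, were lower in colonocyte-like cells (log2 ratios -1.20 and -1.17) at 135 and 42, and 88 and 28 UMIs. Ccl20 was higher in colonocyte-like cells, 2.73 and 19.5 CPM (2.83, 2.56 to 3.12), and in goblet-like cells, 4.95 and 10.7 CPM (1.12). Few colonocyte-like cells carried it: 1 cell held 51 of 127 UMIs in the first library and 1 cell 230 of 646 in the second, where the top 1% of cells held 71.7%.

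Receptors of the 7 chemokines, which leukocytes carry in the main, were scarce. Over all kept cells Ccr1 had 71 UMIs under the whole epithelium label and 69 under the GFP label, the most of the 9 receptors listed. Cxcr3 had 10 and 6, Cxcr6 16 and 7, Cx3cr1 35 and 4, Ccr9 24 and 7 and Ccr10 16 and 24. Only Ccr1 and 1 other receptor gene, Ackr4, reached 50 UMIs in all, and neither was 2-fold apart. Ratios are not given for the others at such counts. Colonocyte-like cells held 48 of the 71 and 51 of the 69 Ccr1 UMIs, and 34.5% and 30.7% of all UMIs.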

How the data were processed

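The authors deposited UMI counts per gene and barcode, made with Cell Ranger 2.1.1 on mm10 per the submitters' processing notes, although the file headers name version 3.1.0. Call settings and strand handling are not given in the sources used here. Barcodes were kept with at least 500 genes, 1000 UMIs and at most 25% mitochondrial UMIs (7762 of 13967 and 5767 of 13575, median 14160 and 15821 UMIs). Scrublet called 0 and 1 cells (0.0173%), was taken not to have worked, and doublets were kept. Both libraries were clustered together (scanpy 1.11.5, leidenalg 0.10.2, 2000 variable genes, 30 components, 15 neighbours, resolution 1.0) into 32 clusters. A class needed 3 markers raised at least 2-fold (pseudocount 5 CPM) and a mean marker score of 0.75, or 2.5 in shallow clusters, thresholds set after seeing the data. Counts were summed over cells and given as CPM with exact Poisson intervals, ratios with exact conditional binomial intervals (scipy 1.17.1). UMIs mark molecules, and the intervals cover counting error only. Code for the ratios was tested on simulated data. All 10 genes are named. Of the pathway list, those named are the receptors of the 7 chemokines and at most 8 genes per comparison, the furthest apart among those 2-fold apart with at least 100 UMIs. Il18bp over all cells, Tgfb1, Tnfrsf11b, Casp1, Adam10, Adam17, Tnfrsf10b, Il1r1, Irf1, Iigp1, H2-Aa and, in single clusters, Ccl20 and Cxcl2 were named after their values were seen. The 3 most alike genes per gene are the highest mean of 2 Pearson correlations of log2(CPM + 1). The genes and lists were chosen with earlier results of these data known. Promoters are from RefSeq.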

Additional observations from a re-analysis of the deposited data

Results flagged for a closer look

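The log2 ratio of Ccl6 between the libraries (GFP over whole epithelium) was -1.59 in goblet-like cells. It was 0.74 in colonocyte-like and 0.30 in stem/TA-like cells, so its sign differs between classes, but both positive values lay within 2-fold. The stem/TA-like value ran from -0.10 to 0.34 under the alternatives. The difference between classes was not tested, since each class has 1 library per condition. Summed goblet markers stood at 625 and 2142 CPM in colonocyte-like cells under the whole epithelium and GFP labels. In stem/TA-like cells they stood at 848 and 2384 CPM, and their part was not tested. Under the whole epithelium label, the colonocyte and stem/TA levels were not above the level in T/NK-like cells with a Cd3 UMI.

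Cells with a Cd3e or Cd3g UMI are left out of the comparisons. Among them, 186 T/NK-like cells under the whole epithelium label had Cxcl10 at 77.1 CPM, against 17.5 CPM in the cells of that library without such a UMI. Tnfsf10 stood at 61.7 CPM in the former and 27.0 CPM in the latter.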

How the results depend on the processing

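No paired analysis was possible because each condition has 1 library. Of 290 values of the 10 genes' log2 ratios under alternatives, 190 moved by less than their counting interval and 100 by more, and no ratio of 2-fold or more changed sign. Of 18 such ratios, 11 stayed at 2-fold or more under each alternative run. The exceptions were Cxcl10 in colonocyte-like cells (-0.15 without cells with a T/NK or myeloid marker UMI), Cxcl16 in colonocyte-like cells (-0.95 after centring on the median gene), Cxcl10 in goblet-like cells (-0.99 with at least 5000 UMIs per cell), Cxcl9 and Cxcl10 in stem/TA-like cells (-0.80 and -0.05 with each library clustered on its own), and Tnfsf10 and Il1rn over all cells (-0.56 and 0.83 at no more than 10% mitochondrial UMIs). Ratios under 2-fold that turned in stem/TA-like cells with each library clustered on its own were Tnfsf10 (0.70), Il1rn (-0.35) and Il18 (-1.12). Tnfsf10 in goblet-like cells passed 2-fold (-1.67) without cells with a T/NK or myeloid marker UMI (544 and 329 cells left), which made 5 of the 10 genes lower there. The share of all genes lower under that alternative was not computed. The same class was highest in both libraries for 6 of the 10 genes with each library clustered on its own and for 8 otherwise. The causes were not tested.

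The count of the 10 genes at least 2-fold higher was 0 over all cells at 10% mitochondrial UMIs and 0 with equal weight per cell, 2 in goblet-like cells with at least 5000 UMIs, and 1 in stem/TA-like cells at resolution 2.0 and 1 without c4 and c8 (an alternative, like that without c14, added after seeing the data). The shares over all genes under these alternatives were not computed, so nothing is read from these counts. For the pathway list, a minimum of 10 UMIs gave 12 lower genes over all cells (6 at 50 UMIs), 14 higher in colonocyte-like (7), 3 higher in goblet-like (1) and 8 lower in stem/TA-like cells (5), while the shares over all genes went from 6.31% to 10.5%, 3.25% to 5.32%, 2.52% to 4.54% and 4.41% to 8.11%. A minimum of 200 UMIs, which tests fewer genes, gave 3 higher over all cells, 3 lower and 1 higher in colonocyte-like, 2 lower in goblet-like, and 1 lower and 3 higher in stem/TA-like cells. Over all genes the shares at that minimum were 2.27% higher in all cells, 4.15% lower and 2.00% higher in colonocyte-like, 2.08% lower in goblet-like, and 2.57% lower and 2.11% higher in stem/TA-like cells. Of the 10 genes, 7 had a lower share of thinned goblet-like cells with a UMI under the GFP label, and 4 without thinning.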

Other observations

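A cluster of 12 cells of the library labelled whole epithelium, too small to be named, had Ccl20 at 119.9 CPM (20 UMIs), Ccl9 at 137.9 CPM (23 UMIs), Ccl25 at 66.0 CPM (11 UMIs) and Cxcl9 at 101.9 CPM (17 UMIs). Ccl9, a CC chemokine close to Ccl6, was otherwise a transcript of goblet-like cells, at 53.7 CPM under the whole epithelium label and 43.5 CPM under the GFP label. It differed between the 2 large goblet clusters of each library, with 93.5 CPM in c12 and 15.6 CPM in c16 of the first, and 79.6 CPM in c13 and 15.8 CPM in c11 of the second. In both libraries the higher cluster was the one with Retnlb and Muc2 among its leading genes. Ccl6 in the second library ran the other way, higher in c11 than in c13. These values were chosen after they were seen.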
